A study of Rattus norvegicus with 134 samples.

Results

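The cardiac miRNA miR-1, miR-208a and miR-499 were followed across rat heart, kidney and liver under the names rno-miR-499-5p, rno-miR-499, rno-miR-208a and rno-miR-1-3p. They were chosen by name, as 4 of the 185 miRNA names in the table. In the study, conscious F344 rats, an inbred Fischer strain, in the heat-stress arm spent 24 h in an incubator at 22.0 °C and were then heated at 37.0 °C until the core temperature reached 41.8 °C (Tc,max). They were euthanized at Tc,max, or after 24 h or 48 h in a cage at 22.0 °C, and time-matched control rats were not heated. By the labels the controls never entered the incubator, while the study's methods keep them in it at room temperature, so that heat and incubator handling cannot be told apart. The libraries analysed here held the small RNA of 37 rats, with 1 library per rat and organ (35 hearts, 29 kidneys, 13 livers). The hearts came from 6 heat-stressed and 5 control rats at Tc,max, 6 and 6 at 24 h, and 6 and 6 at 48 h. The kidneys came from 5 and 5, 6 and 4, and 4 and 5 rats, and the livers from 6 and 6 rats at Tc,max and 1 control at 24 h. Some heat-stressed rats at 48 h had organ injury, which the labels do not give per rat, so that they form 1 group here. Age and sex are not given in the labels.

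miRNA are short RNA that guide silencing complexes to mRNA, mainly through the seed, the bases next to the 5′ end. miR-1 is a core miRNA of heart and skeletal muscle, where it restrains growth and proliferation genes. miR-208a, miR-208b and miR-499 are the "myomiR", which lie inside myosin heavy chain genes and are made along with them. In rodents, loss of miR-208a blunts the stress-dependent switch from alpha to beta myosin, and the miRNA of this group leak into blood when heart muscle is damaged.

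The sequences below show which members share a seed and could regulate the same targets. They are the RefSeq mature miRNA of the rat (GRCr8), 5′ to 3′, with the seed, bases 2 to 8, in capitals.
rno-miR-1-3p: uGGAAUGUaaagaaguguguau
rno-miR-206-3p: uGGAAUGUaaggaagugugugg
rno-miR-208a-3p: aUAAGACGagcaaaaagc
rno-miR-208b-3p: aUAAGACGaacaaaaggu
rno-miR-499-5p: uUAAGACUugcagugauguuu
miR-1-3p, at chr18:2160339-2160360 on the minus strand, has the seed of miR-206, its skeletal muscle relative, and matches it at 19 of 22 bases. The seed of miR-208a is that of miR-208b, with 15 of 18 bases alike, and its bases 2 to 7 are also those of miR-499-5p. These were the only 3 of 693 rat mature names in the RefSeq table with that stretch.

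The names rno-miR-208a and rno-miR-499 carry no arm, so that the mature product behind their reads is not given. The hairpins they name are shown because of this, with the mature miR-208a-3p and miR-499-5p in capitals.
Mir208a: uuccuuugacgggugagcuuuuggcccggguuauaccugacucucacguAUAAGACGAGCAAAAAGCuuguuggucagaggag
Mir499a: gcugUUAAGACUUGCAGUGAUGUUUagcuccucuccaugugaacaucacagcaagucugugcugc
Mir208a lies at chr15:32395552-32395634 on the minus strand, within the span of Myh6, the alpha myosin heavy chain gene. Mir499a lies at chr3:164570612-164570676 on the plus strand, within the span of Myh7b, another myosin heavy chain gene. The hairpin of miR-3546 covers Mir208a on the opposite strand. In the table miR-3546 held 24340 reads over the 35 hearts and miR-208a 24148, a difference of 0 to 17 reads per library. Both names therefore appear to count the same reads, and the strand and arm of the miR-208a values cannot be told apart.

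Levels are given as the deposited log2(CPM + 1), where CPM is the reads of a name scaled to a common library total. A read covers a whole small RNA, and levels were not divided by length. Total reads, recovered from the step that 1 read makes, were 126279 to 879244 per heart, 355221 to 2224068 per kidney and 126700 to 379444 per liver. The floor of 3 reads lay at 2.14 to 4.63 in the heart, 1.23 to 3.24 in the kidney and 3.15 to 4.63 in the liver. Intervals of reads cover counting error only. Libraries of a tissue were pooled and sequenced in a lane of their own and hearts were ground in another mill, so that tissue, lane and grinding cannot be told apart.

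The heart library of heat-stressed rat 307 at 48 h stood apart and went against its tissue label. It held 1, 2, 1 and 2 reads of miR-1-3p, miR-208a, miR-499 and miR-499-5p among 194846, or levels of 2.62, 3.49, 2.62 and 3.49. All 8 names of a list of muscle miRNA were below every other heart in it, and miR-208b was at 0. The summed level of that list was 8.34, against 14.8 to 16.9 in the other 34 hearts. Names of lung and airway epithelium (miR-375-3p, miR-34c-5p, miR-34b-5p) were above every other heart, 3 of 3, with a summed level of 13.8 against 6.21 to 8.14. For kidney and other epithelium 7 of 13 names were above every other heart, among them miR-429 at 11.79 against 2.18 to 5.99. The defining kidney names miR-192-5p (8.89) and miR-194-5p (4.04) lay within the range of the hearts, as did the liver name miR-122-5p (2.62). Of endothelial names 3 of 4 were above every other heart, and the 6 names of fibroblasts and smooth muscle were within the hearts' range. The rank correlation of this library with the mean of the control hearts over 185 names was 0.563, against 0.902 to 0.994 for the other hearts. With the control kidneys it was 0.641, little above the 0.464 to 0.633 of the other hearts. With the control livers it was 0.487, within the other hearts (0.436 to 0.548). Names share a library and are not replicates. What this library is made of was not tested, and the heat comparisons at 48 h are given with and without it. In the kidney library of the same rat the kidney names went both ways. miR-192-5p was low, at 12.32 against 15.35 to 16.33 in the other 28 kidneys, as was miR-194-5p, at 4.87 against 9.98 to 11.29. miR-429 was above the others, at 11.93 against 10.87 to 11.58, and so was the summed kidney list, at 19.1 against 18.7 to 18.9.

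**Figure D1:**
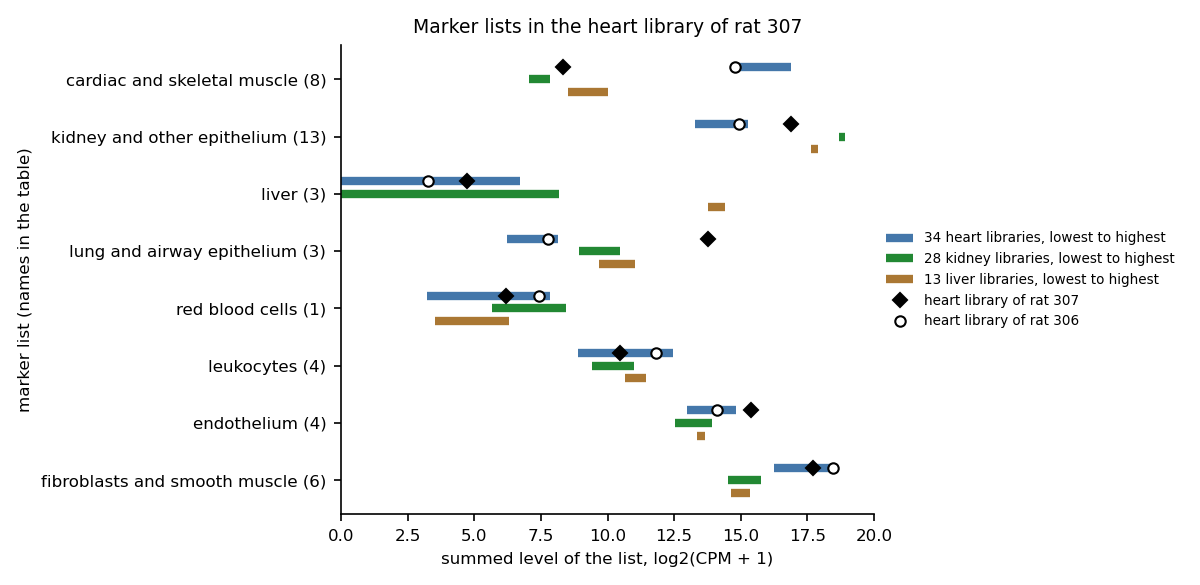
Summed level of each marker list, in log2(CPM + 1), with horizontal bars from the lowest to the highest library of each tissue other than those of rat 307, a diamond for the heart library of rat 307 and an open circle for that of rat 306. The diamond lies at 8.34 for the muscle list, below the other hearts, and at 13.8 for the lung and airway list, above them.

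The 4 names were abundant in the heart, and the organs outside it fell into different patterns: miR-499 and miR-499-5p were present in every kidney, whereas miR-1-3p and miR-208a were nearly absent there. In the 17 control hearts miR-208a averaged 10.48 ± 0.23 (SD, n = 17; lowest 9.98, median 10.56, highest 10.79). miR-499-5p averaged 10.19 ± 0.32 (9.61, 10.29 and 10.57). miR-1-3p averaged 9.49 ± 0.30 (8.82, 9.45 and 9.91), and miR-499 without an arm 8.53 ± 0.26 (8.11, 8.52 and 8.95). By mean level in control hearts these were rank 44, 53, 71 and 107 of 185 names. Within a library, miR-208a exceeded miR-1-3p in all 35 hearts, by 0.26 to 1.47, and miR-499-5p exceeded miR-499 in all 35, by 0.88 to 2.27. The neighbours miR-208a and miR-499-5p did not keep their order, with differences from -0.31 to 1.68, nor did miR-499-5p and miR-1-3p.

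In the kidney miR-1-3p was listed at 0 in 27 of 29 libraries and miR-208a in 19 of 29. In the 14 control kidneys together, miR-1-3p had 2 reads and miR-208a 5 reads among 17540473. The counting ratio of heart to kidney was 6462 for miR-1-3p (95% exact interval 1788 to 53374) and 5112 for miR-208a (2190 to 15745). miR-499-5p, by contrast, lay at 6.46, 6.88 and 7.32 (lowest, median, highest) in the control kidneys, with 69 to 250 reads per library. miR-499 lay there at 4.35, 4.94 and 5.53, with 18 to 71 reads. Their pooled ratios of heart to kidney were 9.97 (9.52 to 10.5) and 12.5 (11.4 to 13.7), far outside the intervals of miR-1-3p and miR-208a. No control kidney reached the lowest control heart in any of the 4 names.

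limma's treat test, which asks for more than a set minimum fold change, called 122 of 185 names between control heart and control kidney, or 65.9%, and 47 names (25.4%) as higher in the heart. All 4 members were among the latter. The log2 difference was 3.26 for miR-499-5p (SE 0.11, adjusted p = 2.16e-23) and 3.59 for miR-499 (SE 0.23, adjusted p = 6.99e-16), averaged over the 3 times. It was 9.37 for miR-1-3p and 10.19 for miR-208a. These last values depend on the pseudocount, since most kidneys were at 0, and both names passed the filter on low reads only through the hearts. The calls of miR-1-3p and miR-208a therefore had to follow and add nothing to the read counts. With the rat as a replicate block, which pairs the organs of a rat, the log2 differences were 3.26, 3.60, 9.37 and 10.18 in the same order.

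In the liver all 4 names were low. miR-499-5p was found in 13 of 13 livers, at 3.15 to 5.23 with 1 to 7 reads per library. miR-208a was found in 12 of 13 (up to 4.48, 0 to 4 reads), miR-499 in 10 of 13 (up to 3.74) and miR-1-3p in 7 of 13 (up to 3.40). Over the 7 control livers, with 1517510 reads, the members had 31, 13, 5 and 7 reads in this order. That was 1.70% (95% exact interval 1.15 to 2.41) of the control heart level for miR-499-5p, 0.588% (0.313 to 1.01) for miR-208a, 0.870% (0.282 to 2.03) for miR-499 and 0.626% (0.252 to 1.29) for miR-1-3p. The interval of miR-499-5p lay above that of miR-208a and overlapped those of miR-499 and miR-1-3p, and the other 3 overlapped one another. Between control heart and liver at Tc,max 133 of 185 names were called (71.9%), 69 as higher in the heart (37.3%). All 4 members were among them. However, miR-1-3p, miR-208a and miR-499 passed the filter through organs other than the liver, where they had 0 to 4 reads per library. Their calls therefore had to follow and add nothing to the read counts. Within the liver miR-499-5p passed only through the 1 control at 24 h, with 5 reads, and had 2 to 7 reads per Tc,max control. Its calls against the liver therefore add little to the read counts. Between kidney and liver 121 were called (65.4%), 64 as higher in the kidney (34.6%). The fit put miR-499-5p higher in the kidney by 2.41 on the log2 scale (SE 0.19, adjusted p = 2.59e-12), with the limit given above. By pooled reads it stood at 121 CPM in the control kidneys (95% exact interval 116 to 126) and 20.4 CPM in the control livers (13.9 to 29.0). miR-499 differed by 2.92 in the same direction, but it had 0 to 3 reads per liver. It passed the filter through the other organs, so that its call had to follow. By pooled reads miR-499 stood at 30.4 CPM in the control kidneys (95% exact interval 27.9 to 33.1) and 3.29 CPM in the control livers (1.07 to 7.69). For miR-1-3p and miR-208a no difference between kidney and liver is read from the fit, since both were tested only through their hearts and had 0 to 4 reads per library in these organs.

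The other muscle names of the table set the members' pattern in context. These are miR-208b, the partner of miR-208a in the beta myosin gene Myh7, and the miR-133 names miR-133a, miR-133a-3p, miR-133b-3p and miR-133c. In control liver these 5 names stood at 0.658% to 0.843% of their control heart level, a range that the intervals of miR-1-3p, miR-208a and miR-499 overlap. In control kidney they stood at 0.0171% to 0.103%, miR-1-3p at 0.0155% and miR-208a at 0.0196%. miR-499 stood at 8.03% and miR-499-5p at 10.03% there, so that the kidney held them at a much larger share of the heart level than any of the other 7 muscle names. The source of the muscle names in the liver was not tested. miR-133a and miR-133c lie on opposite strands of 1 locus and, like miR-208a and miR-3546, share most of their reads.

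**Figure D2:**
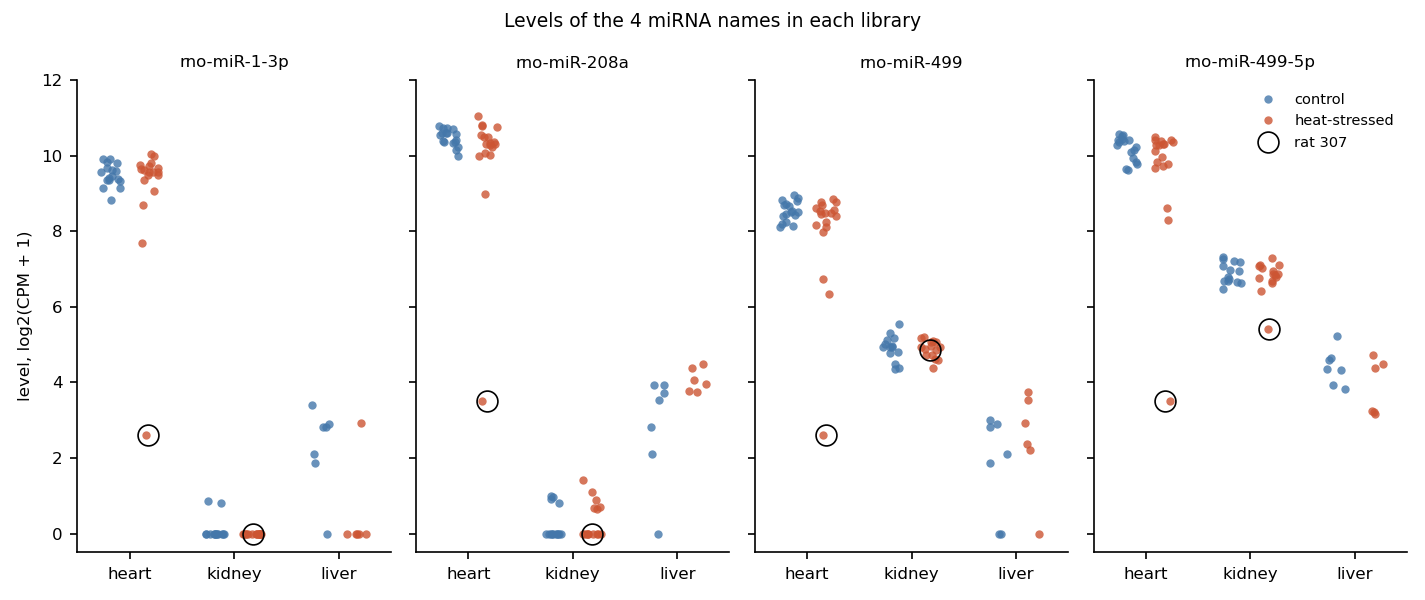
Level of each member in every library, in log2(CPM + 1), by organ, with control rats in blue, heat-stressed rats in orange and rat 307 ringed. miR-499-5p lies at 5.40 to 7.32 in the 29 kidneys, where miR-1-3p is at 0 in 27.

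**Figure D3:**
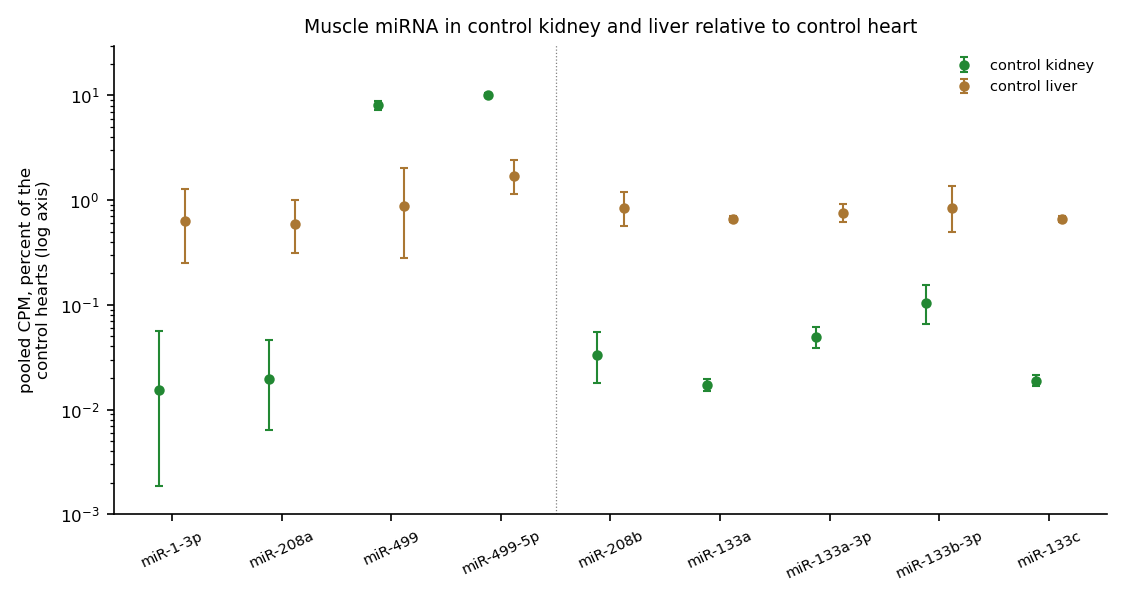
Pooled CPM of 9 muscle names in control kidney (green) and control liver (brown) as a percent of the control hearts, on a log axis, with 95% exact counting intervals. In the kidney miR-499 and miR-499-5p stand at 8.03% and 10.03%, and the other 7 names at 0.103% or less.

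miR-499-5p lay above miR-499 in every heart and kidney, by somewhat more in the kidney on average. miR-499-5p minus miR-499 within a library had a median of 1.63 in the hearts and 2.03 in the kidneys (ranges 0.88 to 2.27 and 0.54 to 2.68, which overlap). In rat 307 this difference was 0.88 in the heart, from 2 and 1 reads, and 0.54 in the kidney, the lowest in both organs. Without this rat the median was 1.64 in 34 hearts (1.31 to 2.27, SD 0.21) and 2.03 in 28 kidneys (1.49 to 2.68, SD 0.29). This shift between the organs was not tested.

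Without heat stress no member passed the test between time points in the heart, but the intervals of these tests were wide. Over the 17 control hearts, the SD within a time point was 0.21 for miR-208a, 0.23 for miR-499, 0.28 for miR-1-3p and 0.28 for miR-499-5p, against a median of 0.34 over the 163 names tested in the heart. Between control time points the largest member difference was 0.43, for miR-499-5p at 24 h minus Tc,max (SE 0.69, adjusted p = 0.994). Of 163 names, 3 were called between 24 h and Tc,max (1.84%), 2 between 48 h and Tc,max (1.23%) and 0 between 48 h and 24 h (0%, with 2 at an unadjusted p under 0.05), and none was a member. voom was not run for these pairs. The SE includes the spread of rat 307, since limma pooled it over the conditions of a tissue. These tests therefore cannot show that the levels were steady.

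At Tc,max, when the rats had just reached their peak core temperature, the 4 names in the heart did not differ between heat-stressed and control rats beyond the spread between rats. miR-208a in the 5 control hearts lay at 10.56, 10.56, 9.98, 10.60 and 10.34, and in the 6 heat-stressed hearts at 9.98 to 11.04 (median 10.33). The groups overlapped almost wholly. The log2 fold change was 0.016 (95% confidence interval -1.39 to 1.43, or -0.44 to 0.47 without rat 307). miR-1-3p in the controls lay at 9.41, 9.91, 8.82, 9.14 and 9.32, and in heat-stressed hearts at 8.69 to 9.74 (median 9.49). Its log2 fold change was 0.027 (-1.39 to 1.44, or -0.49 to 0.55 without rat 307). miR-499-5p lay at 9.61, 10.41, 9.83, 9.64 and 10.14 in controls and at 8.30 to 10.37 (median 9.90) after heat, with a log2 fold change of -0.19 (-1.58 to 1.21, or -0.77 to 0.40 without rat 307). miR-499 lay at 8.14, 8.66, 8.23, 8.11 and 8.42 in controls and at 6.73 to 8.61 (median 8.33) after heat, a log2 fold change of -0.20 (-1.48 to 1.07, or -0.84 to 0.44 without rat 307). The low end belonged to 1 heat-stressed rat, 285, for all 4 names. Its miR-499 was at 33.4% and its miR-499-5p at 32.3% of the geometric control mean, while its miR-1-3p was at 64.8% and its miR-208a at 74.4%. Without rat 285 the log2 fold changes of miR-499 and miR-499-5p were 0.072 and 0.10.

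At 24 h the groups lay close together. miR-208a lay at 10.14, 10.38 and 10.61 (lowest, median, highest) in 6 controls and at 10.22, 10.33 and 10.50 in 6 heat-stressed rats, a log2 fold change of -0.020 (-1.36 to 1.32, or -0.45 to 0.41 without rat 307). miR-1-3p lay at 9.45, 9.60 and 9.91 in controls and at 9.58, 9.70 and 10.04 after heat, a log2 fold change of 0.082 (-0.41 to 0.58 without rat 307). For miR-499-5p it was -0.13 (-0.68 to 0.43 without rat 307) and for miR-499 -0.19 (-0.80 to 0.42), with 3 of 6 and 4 of 6 heat-stressed rats below the control mean. limma called 0 of 163 names (0%) at Tc,max and 0 (0%) at 24 h. At an unadjusted p under 0.05 there were 3 and 0 names, and voom on the recovered reads also called 0 at both times.

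At 48 h all 4 members averaged lower in heat-stressed hearts, but none passed the test, and rats 306 and 307 carried the difference. miR-208a lay at 10.75, 10.55, 8.97, 3.49, 10.01 and 10.78 in heat-stressed rats 304 to 309 and at 10.22, 10.71 and 10.79 (lowest, median, highest) in 6 controls. Rats 304, 305 and 309 lay within the controls, rats 306, 307 and 308 below them. miR-1-3p lay at 9.57, 9.99, 7.69, 2.62, 9.36 and 9.55 in rats 304 to 309 and at 9.15, 9.37 and 9.79 in controls. Only rats 306 and 307 lay below its controls. miR-499-5p lay at 10.42, 10.29, 8.61, 3.49, 9.78 and 10.29 in these rats and at 9.79, 10.30 and 10.54 in controls. Rats 306 and 307, and narrowly rat 308, lay below its controls. miR-499 lay at 8.86, 8.57, 6.34, 2.62, 8.24 and 8.78 and at 8.20, 8.61 and 8.87 in controls, with rats 306 and 307 below.

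The log2 fold changes at 48 h were -1.54 for miR-208a (SE 0.66, adjusted p = 0.425 from limma; exact two-sided permutation p = 0.115, or 0.719 adjusted over 163 names) and -1.42 for miR-499-5p (SE 0.65, adjusted p = 0.486; exact p = 0.186, or 0.734). They were -1.36 for miR-499 (SE 0.60, adjusted p = 0.452; exact p = 0.251, or 0.792) and -1.32 for miR-1-3p (SE 0.66, adjusted p = 0.519; exact p = 0.377, or 0.948). With 6 against 6 rats the smallest exact p is 0.00216. A single name therefore cannot pass after adjustment over 163 names unless several others also reach so low a p. Over all 163 names the median log2 fold change was 0.16. limma called 2 names (1.23%), none a member, with 18 at an unadjusted p under 0.05, and voom called 2. Without rat 307 limma again called 2 names, with 11 at an unadjusted p under 0.05. Without rat 307 the members' 95% confidence intervals were -0.87 to 0.04 (miR-208a), -0.94 to 0.22 (miR-499-5p), -1.08 to 0.20 (miR-499) and -0.74 to 0.30 (miR-1-3p). Without rats 306 and 307, a setting chosen after seeing the data, the log2 fold changes were -0.11, -0.039, 0.014 and 0.17 in this order, with intervals from -0.57 to 0.55 in all. In bulk tissue, fewer muscle cells and less of a miRNA per cell cannot be told apart.

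**Figure D4:**
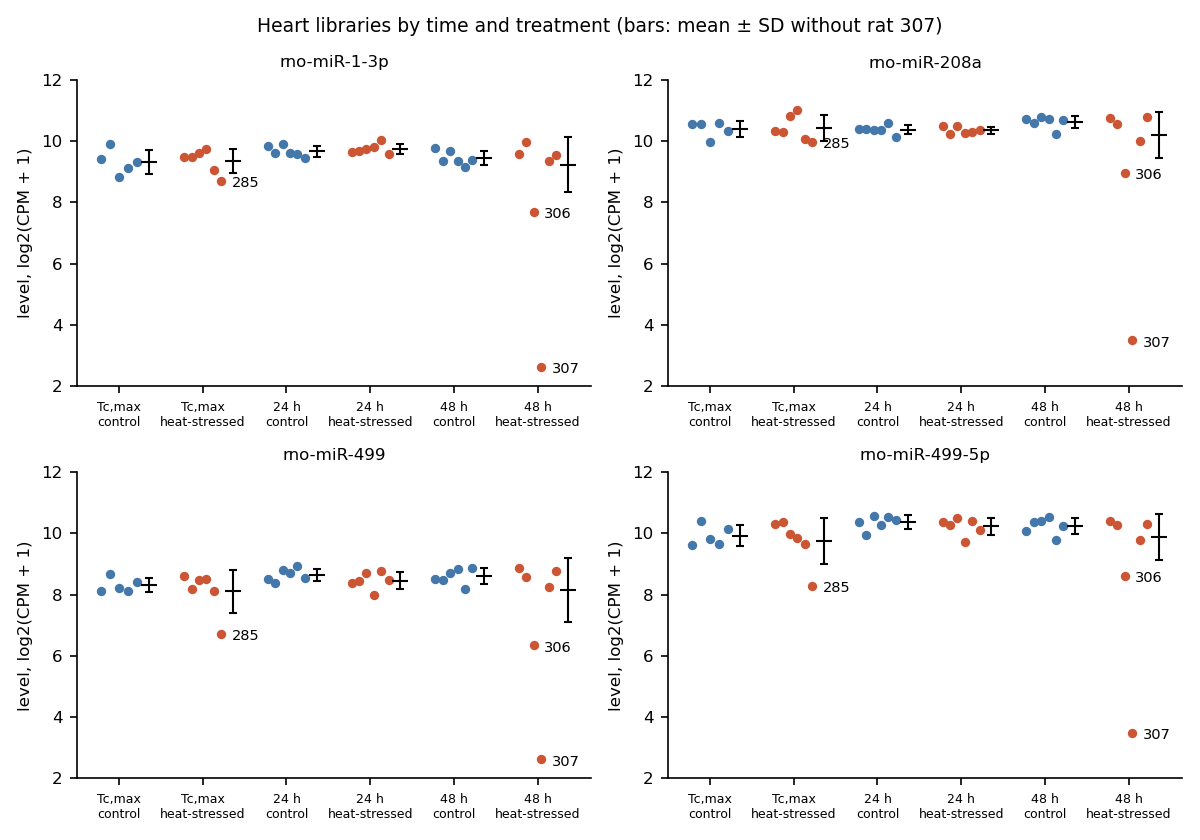
Level of each member in every heart, in log2(CPM + 1), by time and treatment, with the mean ± SD of each group without rat 307 beside the points and rats 285, 306 and 307 numbered. Outside these 3 rats the heat-stressed hearts lie among or close to the controls of their time point.

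**Figure D5:**
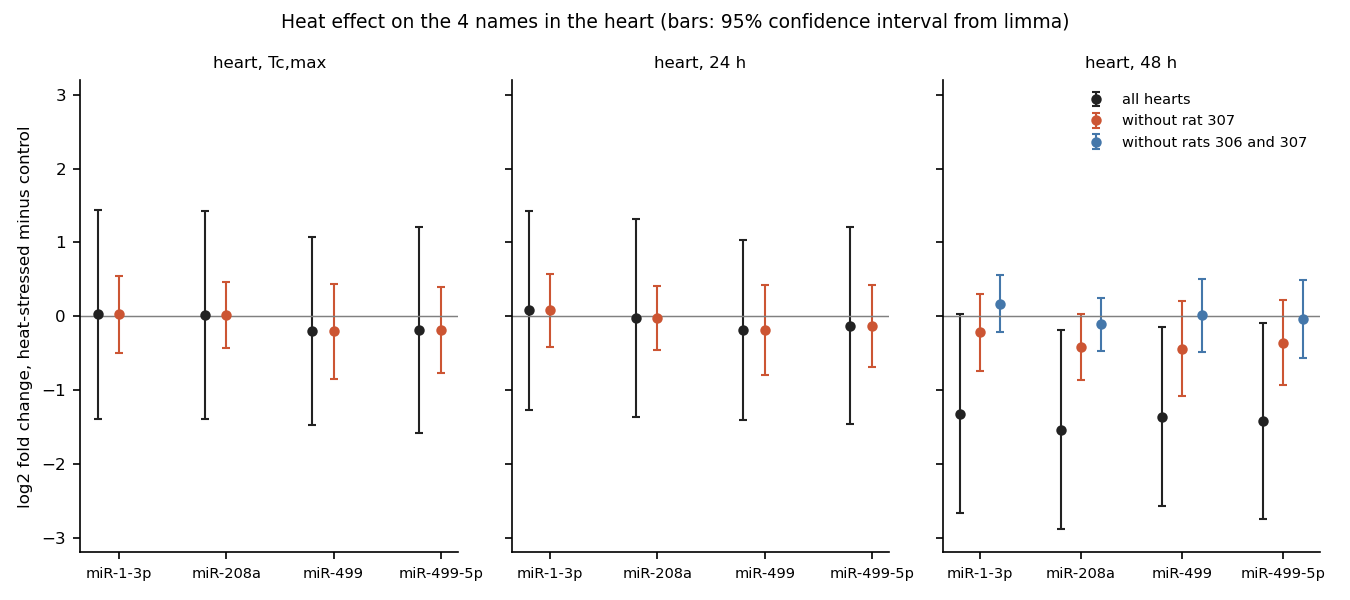
Log2 fold change of heat-stressed minus control hearts for each member at each time, with 95% confidence intervals from limma, for all hearts (black), without rat 307 (orange) and, at 48 h, without rats 306 and 307 (blue). At 48 h the points move from -1.54 to -1.32 with all hearts to -0.11 to 0.17 without both rats.

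In rat 306 the members were low together but well above those of rat 307. Against the geometric mean of the 48 h controls they stood at 32.4% for miR-499-5p, 31.7% for miR-208a, 29.6% for miR-1-3p and 20.9% for miR-499, from 47 to 294 reads each. The miR-133 names stood at 25.0% to 35.8% in this heart, and miR-208b at 61.6%. In the same heart the fibroblast and smooth muscle list was at its highest over all hearts, at a summed level of 18.5 against a median of 16.7 over the 34 hearts other than rat 307. There miR-143-3p, miR-199a-3p, miR-145-5p and the leukocyte name miR-142-5p were each the highest of these 34 hearts, at 18.41, 12.18, 10.85 and 10.38. So were miR-143, miR-199a and the leukocyte name miR-142. The rest of these lists lay within the other hearts: miR-145 at 8.77, and the leukocyte names miR-142-3p at 7.41 and miR-150-5p at 9.47. The summed leukocyte list was 11.8, within the other hearts (8.90 to 12.5). Lung and airway names were not raised, at 7.79. The endothelial names miR-126a and miR-126b were the lowest of these 34 hearts, both at 9.53, while miR-126a-3p (11.81) and miR-126a-5p (13.59) lay within the others. CPM is a share of the library, so that the high miR-143-3p and the low names are not independent. The part of these lists in the low members was not tested. In rat 285 the miR-133 names were at 43.1% to 54.9% and miR-208b at 41.6% of the Tc,max controls. In the heart of rat 307, the pooled-read ratio to the 48 h controls was 0.725% for miR-1-3p (95% exact interval 0.0183 to 4.04), 0.641% for miR-208a (0.0776 to 2.32), 1.31% for miR-499 (0.0330 to 7.28) and 0.830% for miR-499-5p (0.101 to 3.00). miR-133a stood at 0.251% (0.183 to 0.338).

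The other muscle names in the heart gave the same counts as the members. Of the 5, 0 were called at Tc,max, 24 h or 48 h. At 48 h their log2 fold changes were -1.88 (miR-133a), -1.88 (miR-133c), -1.59 (miR-133a-3p), -1.46 (miR-133b-3p) and -1.87 (miR-208b), with a lowest adjusted p of 0.425. Without rat 307 they were -0.53, -0.53, -0.42, -0.36 and 0.014. miR-208b, which shares its seed with miR-208a, thus lay at the control level without rat 307, at 11.30 ± 0.51 (SD, n = 5) against 11.29 ± 0.38 (SD, n = 6). Within a library miR-208a minus miR-208b was -1.92 to 0.67 in the 34 other hearts, so that their order was not fixed.

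Whether the heat effect in the heart differed at 48 h from the other times was tested directly. The difference from 24 h was -1.52 (95% confidence interval -3.42 to 0.38) for miR-208a and -1.18 to -1.40 for the other members, with adjusted p of 0.831 to 0.840. limma called 0 of 163 names (0%), with 10 at an unadjusted p under 0.05. Against Tc,max the differences were -1.55 for miR-208a and -1.16 to -1.35 for the others, with adjusted p of 0.555 to 0.645 and 4 names called (2.45%), none a member. Without rat 307 the differences from 24 h and Tc,max were -0.40 and -0.43 for miR-208a, -0.30 and -0.25 for miR-1-3p, -0.25 and -0.24 for miR-499, and -0.23 and -0.17 for miR-499-5p. voom was not run for these tests.

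In the kidney only miR-499 and miR-499-5p had enough reads to be tested, and neither passed. At Tc,max miR-499-5p lay at 6.42, 6.94, 6.83, 6.69 and 6.76 after heat and at 6.68, 7.07, 7.27, 6.96 and 6.64 in controls, a log2 fold change of -0.19 (95% confidence interval -0.65 to 0.26). At 24 h it lay at 6.78, 7.08 and 7.29 (lowest, median, highest of 6) after heat and at 6.66, 7.32, 7.22 and 6.96 in controls, a log2 fold change of -0.0086 (-0.48 to 0.46). At 48 h it lay at 6.86, 6.64, 5.40 and 7.01 after heat and at 7.18, 6.80, 6.74, 6.68 and 6.46 in controls, a log2 fold change of -0.29 (-0.78 to 0.19). Rat 307 alone lay below the controls, and without it the value was 0.067 (-0.30 to 0.43). For miR-499 the log2 fold changes were 0.032, -0.094 and -0.14 at the 3 times, and the groups overlapped at each. Without rat 307 the 48 h value was -0.19 (-0.64 to 0.26). Of 175 names limma called 0 (0%) at each of the 3 times, and voom also 0. The unadjusted p was under 0.05 for 0 names at Tc,max, 0 at 24 h and 29 at 48 h, or for 3, 0 and 6 names without the kidney of rat 307, and limma then also called 0. miR-1-3p had 1 read in each of 2 control kidneys at Tc,max and none in the other 27 kidneys. miR-208a had 0 to 2 reads per kidney in every group.

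The difference of the heat effect between heart and kidney could be tested for miR-499 and miR-499-5p. At 48 h it was -1.22 (95% confidence interval -2.66 to 0.21, adjusted p = 0.195) and -1.13 (-2.71 to 0.45, adjusted p = 0.282), or -0.25 and -0.42 without rat 307. At Tc,max and 24 h it lay between -0.24 and 0.0085. Of 154 names limma called 0 (0%) at both earlier times, where the unadjusted p was under 0.05 for 1 and 0 names, and 2 at 48 h (1.3%). voom was not run for this test. With the rat as a replicate block, 11 names were called at 48 h, again without a member (-1.38 and -1.30, adjusted p = 0.101 and 0.130).

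In the liver at Tc,max, miR-499-5p alone passed the filter, and only through the 1 control library at 24 h, with 5 reads. It lay at 3.15, 3.80 and 4.71 (lowest, median, highest) in 6 heat-stressed rats and at 3.92, 4.47 and 5.23 in 6 controls. The groups overlapped, and the log2 fold change of -0.65 (95% confidence interval -1.62 to 0.31; exact two-sided permutation p = 0.0996, or 0.831 adjusted over 176 names; not called by limma) rests on 1 to 7 reads per library. limma called 0 of 176 names (0%), with 2 at an unadjusted p under 0.05, and voom called 0. miR-208a had 19 reads in the heat-stressed livers and 9 in the controls, a ratio of 1.96 (95% exact counting interval 0.845 to 4.92). miR-1-3p had 1 and 6 reads, and miR-499 8 and 4, so that no difference was detectable at this depth.

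Across hearts, the names whose level moved most like that of miR-499 and miR-499-5p were miR-133 names, whereas for miR-1-3p the nearest names depended on rat 307. Pearson's r was taken over 35 hearts, on levels less the mean of the group, among the 163 names tested. With all hearts, r was dominated by rat 307: miR-133a-3p reached 0.981 with miR-1-3p, and miR-133b-3p 0.987 with miR-208a. Without rat 307, over 34 hearts, miR-499 went most with miR-133b-3p (0.931), miR-133c (0.927) and miR-133a (0.926), and miR-499-5p with miR-133c (0.926), miR-133a (0.926) and miR-133a-3p (0.863). miR-1-3p went most with miR-30e (0.907), miR-30a (0.865) and miR-22-3p (0.846). miR-208a went with miR-3546, its opposite-strand name (over 0.999), then with miR-30e (0.921) and miR-133b-3p (0.859). Among the members, miR-499 and miR-499-5p reached 0.916, and miR-208a and miR-499-5p 0.646. The 34 hearts still hold rats 306 and 285, which were low in the members and the miR-133 names (miR-499 at 6.34 and 6.73). r was not taken without these rats. The points share libraries and total reads, so that these values are descriptions.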

How the data were processed

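The authors trimmed small RNA reads with cutadapt 2.6, removed low-complexity reads with Prinseq 0.20.4, collapsed copies with the FASTX toolkit 0.0.13 and mapped them to miRBase release 19 with perfect matches; use of strand is not given in the sources used here. The deposited values are log2(CPM + 1) for 185 names. The members and lists were chosen with earlier results of these data known.

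Reads were recovered from the step of 1 read per library: of 3019 values of few reads, 3016 (99.9%) lay within 0.05 of a whole number. They set the filter (some condition with 5 or more reads in each of its libraries), depths, floors (3 reads), 95% intervals and the voom alternative. All conditions of a tissue went into 1 limma fit (limma 3.58.1 in R 4.3.3), with treat at a fold change of 1.25, a trend and FDR under 0.05 over all names. The study's edgeR test was not run, since the deposited unit is log2. Interactions were tested against 0. Exact permutation tests were run on every name. The tests were tried on simulated heart data at 48 h with 163 names: limma recovered 6 of the 10 names given a 2-fold change and 10 of the 10 given a 4-fold change. In the real hearts at 48 h the members' SE was 0.60 to 0.66, and the log2 fold change of -1.54 for miR-208a did not pass. The simulated counts therefore do not give the power of that comparison.

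Alternatives were other scalings, pseudocounts and filters, no fold cutoff, compared groups alone, pooled controls, voom, the rat as block and leaving out libraries. Numbers pair organs of a rat (27 heart and kidney pairs, median correlation of deviations 0.0709, against -0.0159 for other rats). No 2 libraries of a group held the same counts: the lowest chi-square over its degrees of freedom was 3.73 in 172 pairs. Named miRNA were the members, the other muscle names, the 3 names most like each member and the defining marker of each list; other marker names were picked after their values were seen. The labels do not say how rats were housed together, so p-values measure the spread between these rats. Lung libraries were not analysed here. Sequences are from RefSeq. Other tools were matplotlib 3.10.9 for plots and, in Python 3.11.15, pandas 2.3.3 with scipy 1.17.1 and numpy 2.4.6. No column of values was left over (0).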

Additional observations from a re-analysis of the deposited data

Results flagged for a closer look

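Levels far from the rest of their group were looked for in 38 combinations of a member and a group of 4 to 10 libraries, by the gap to the nearest library over the whole range. Of these, 6 stood out, where chance gives about 1 in 20 if the combinations are independent. They are not independent, since the names share libraries. The other names were not looked at in this way, so that the count is no result about the members. Of the 6, 3 belong to the heart of rat 307 among heat-stressed rats at 48 h: miR-1-3p at 2.62 (the others 7.69 to 9.99), miR-208a at 3.49 (8.97 to 10.78) and miR-499-5p at 3.49 (8.61 to 10.42). A further 2 belong to the heart of heat-stressed rat 285 at Tc,max: miR-499 at 6.73 (8.12 to 8.61) and miR-499-5p at 8.30 (9.67 to 10.37). The last belongs to control rat 317 at 48 h, with miR-208a at 10.22 (10.60 to 10.79). miR-499 of rat 307, at 2.62, was not far by this measure because rat 306 was low as well, at 6.34. No member had a heat effect that differed between heart and kidney or between times past the test.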

How the results depend on the processing

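No member passed in any heat comparison under any setting, and miR-499-5p passed in each organ comparison under all settings run, as did miR-499 between heart and kidney. Against the liver, the calls of miR-499-5p rest on 2 to 7 reads per Tc,max control liver. The other calls between organs rest on 0 to 4 reads per library in the kidney or liver, which no setting changes. For miR-1-3p the heat effect at 48 h in the heart was 0.17 without rats 306 and 307 (chosen after seeing the data), and for miR-499 0.014. Small heat effects changed sign with the setting. With controls of all times pooled they were -0.14 (miR-1-3p) and -0.053 (miR-208a) in the heart at Tc,max, 0.043 (miR-499-5p) in the heart at 24 h, 0.13 (miR-499-5p) and 0.18 (miR-499) in the kidney at 24 h and -0.15 (miR-499) in the kidney at Tc,max. With RLE scaling miR-1-3p was -0.0074 in the heart at 24 h. In the kidney at 48 h miR-499-5p was 0.078 (RLE), 0.16 (TMM) and 0.067 (without rat 307), and miR-499 0.23 (RLE) and 0.30 (TMM). In the kidney at 24 h miR-499-5p was 0.0071 (TMM). With the replicate block, the difference of the heat effect between heart and kidney at Tc,max was -0.033 for miR-499-5p, and the block changed no call of a member.
Leaving out 1 library at a time gave, for the heart at Tc,max, -0.10 to 0.18 (miR-1-3p), -0.11 to 0.10 (miR-208a), -0.30 to 0.072 (miR-499) and -0.31 to 0.10 (miR-499-5p), and -0.069 to 0.026 for miR-208a at 24 h. For the kidney it gave -0.18 to 0.021 (miR-499) and -0.14 to 0.086 (miR-499-5p) at 24 h, -0.051 to 0.11 (miR-499) at Tc,max and -0.47 to 0.067 (miR-499-5p) at 48 h. For the heart at 48 h it gave -1.87 to -0.42 (miR-208a), -1.74 to -0.36 (miR-499-5p), -1.69 to -0.44 (miR-499) and -1.69 to -0.22 (miR-1-3p), the upper end without rat 307.
The counts over all names moved more. Of 163 names in the heart at 48 h, 2 were called, 10 without the fold cutoff, 4 with pooled controls and 0 with the compared groups alone or without rats 306 and 307. Leaving out 1 library gave 0 (rat 306 or 308), 1 (control 311), 4 (rat 309) and 9 (rat 304). Between heart and kidney at 48 h, 2 became 0 without rat 307. In addition, 1 name each was called in the kidney at Tc,max (compared groups alone) and in the liver (no fold cutoff), against 0. The cause was not tested. Depth limits the liver, where 1 to 7 reads carry miR-499-5p.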
